A study of Nothobranchius furzeri with 42 samples.

Results

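In 5 tissues of female turquoise killifish of the short-lived GRZ strain (Nothobranchius furzeri), 25475 genes were counted, and 8055 met a minimum level in each tissue. Only these were ranked, and 150 of them had levels that differed between fish most alike in every tissue. These 150 members were chosen by their log2 CPM in 35 libraries of 7 fish, so those values serve here as description only. Tests were kept to the 2 placebo fish that were not ranked on, though they entered the minimum level and the scaling, and to the comparison of alendronate with placebo, whose means had been subtracted beforehand.

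Treated fish received 10 µM alendronate, a bisphosphonate that acts mainly on bone-resorbing osteoclasts, in the water for 3 weeks from 16 weeks of age. Placebo fish received distilled water, and both arms were kept at 28 °C and sampled at 19 weeks. The title prefix of a library was read as 1 fish, giving 5 alendronate and 4 placebo fish, named below by arm and number. Heart, liver and caudal fin muscle were available from all 9 fish, spleen from 8 and kidney from 7, for 42 libraries of 20485992 to 35717250 counts each. The sources used here do not say how the fish were spread over tanks. Of the spleen libraries, those of alendronate fish 1 and 3 stood apart, with 9.77% and 6.37% of counts in genes enriched in liver against 0.474% to 2.25% in the other 6.

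Tissues of 1 animal share a genome, the circulation, the feeding state and the time of sampling. Genes that respond to any of these can therefore differ between animals in several organs at once, and such genes are known for adding spread between individuals to bulk RNA measurements. In a bulk sample, fewer cells of a type and less RNA per cell cannot be told apart. The count table gives Ensembl IDs without names, and 0 of the 25475 IDs matched the gene table at hand, so no member can be given a name, a pathway or a sequence here. Members are described by their rank, by groups of similar profile and, for 4 of them, by ID.

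To be eligible, a gene needed a mean of at least 5 CPM in each tissue, which 8055 genes met. CPM are read counts scaled to a common library total, with TMM factors computed over all 42 libraries. For the 7 fish with all 5 tissues (alendronate fish 1 to 5 and placebo fish 2 and 3), each log2 CPM was expressed as a deviation from the mean of its tissue and arm. Genes were ranked by the variance of the 7 fish means over the variance of all 35 deviations. The same ranking is given here as the between-fish percentage, the part of the summed squared deviations that lies between fish, which is 100 when all tissues of a fish deviate equally.

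The between-fish percentage ran from 80.0% to 93.7% over the members, with a median of 85.0%. Over all eligible genes the median was 35.3%. Rank 150 stood at 79.953% and spanned 0.66 between fish means on the log2 scale, and the first gene outside stood at 79.949% and spanned 0.47. The difference between the highest and lowest fish mean had a median of 1.90 on the log2 scale, or 3.73-fold, against 0.44, or 1.36-fold, over eligible genes. It reached 4-fold in 72 of the 150 members and in 126 of the 8055 eligible genes. The narrowest member spanned 1.58-fold and the widest 187-fold, a value set in part by the prior count, since that gene had 0 counts in 2 muscle libraries.

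Within the alendronate arm the same fish ranked highest in all 5 tissues for 77 members, and for 2.99% of eligible genes. It was alendronate fish 1 in 67 of the 77, and in 160 of the 241 eligible genes with such a fish. Alendronate fish 2 was lowest of its arm in all 5 tissues for 32 members, and for 58 of the 8055 eligible genes. Over the 7 fish, the highest fish mean belonged to alendronate fish 1 in 109 of 150 members and the lowest to alendronate fish 2 in 86. Of the 8055 eligible genes, the same held in 1927 and in 1318. The size of the deviations was alike in the 5 tissues, with a median SD over fish between 0.64 in spleen and 0.77 in kidney. With only 2 placebo fish in the ranking, their deviations mirror each other by construction. Placebo fish 2 and 3 kept the same order in all 5 tissues in 97 members, and in 2314 of the 8055 eligible genes.

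**Figure D1:**
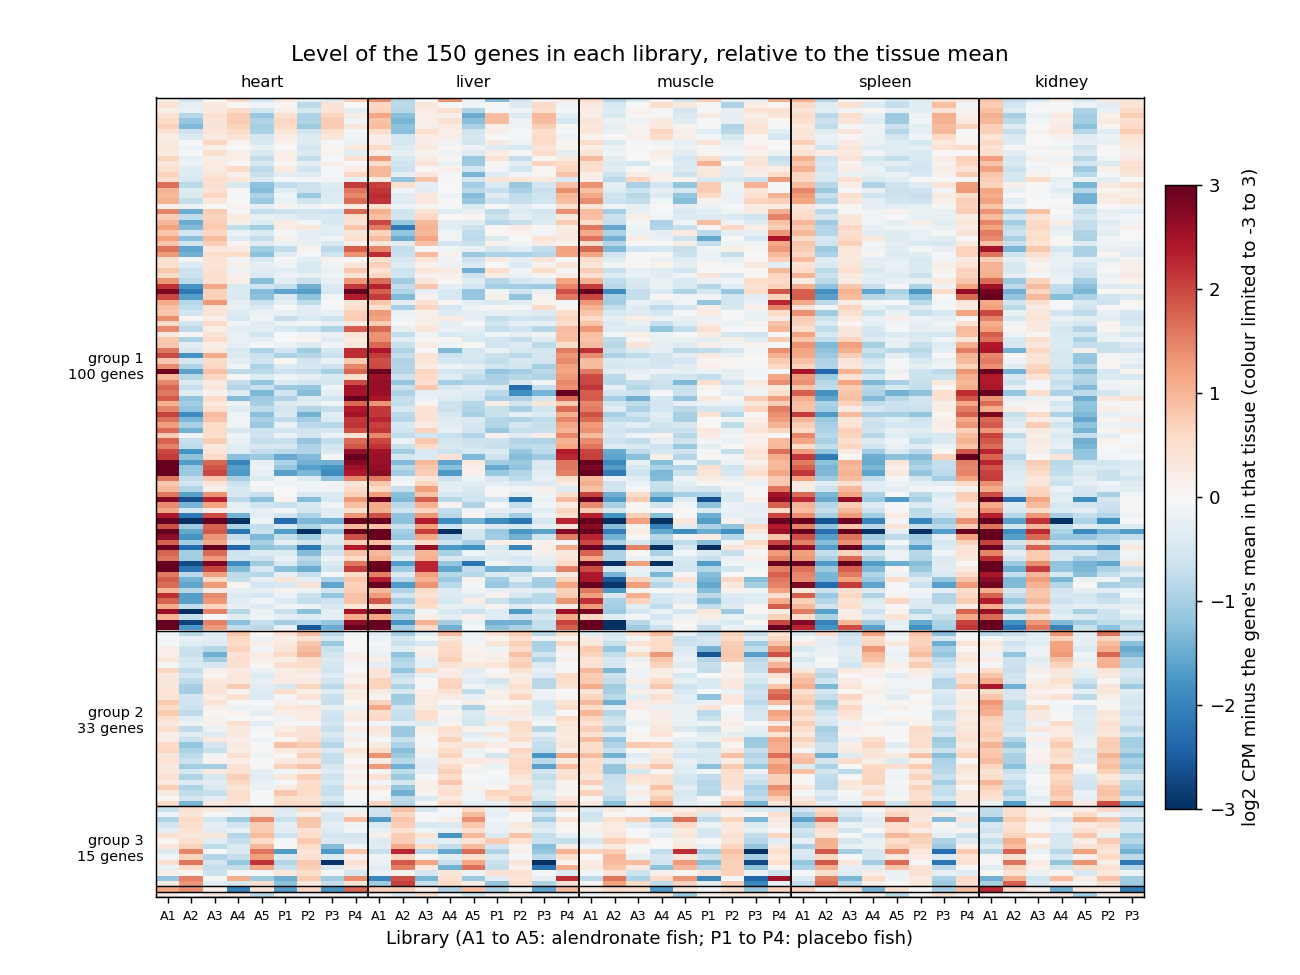
Each row is 1 of the 150 genes and each column 1 of the 42 libraries, coloured by log2 CPM minus the mean of the gene in that tissue. Rows are ordered by group, with 2 genes outside the 3 groups at the bottom; of the 100 genes of group 1, all 100 lie above their tissue mean in every tissue of alendronate fish 1 (A1), and in placebo fish 4 (P4) 92 do in heart, 87 in liver, 91 in muscle and 97 in spleen.

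The members fell into 3 groups by the similarity of their 7 fish means, with average linkage at a Pearson r of 0.5. These groups describe the fish that chose the genes and were formed after seeing the data. Group 1 held 100 members, group 2 held 33 and group 3 held 15, while 2 members joined none.

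Group 1 was high in alendronate fish 1, with a median deviation of 1.38 on the log2 scale. This fish had the highest mean in 96 of the 100 genes. The other alendronate fish had median deviations of 0.35 in fish 3, -0.41 in fish 4, -0.54 in fish 5 and -0.72 in fish 2. The mean level of the group in heart was 5.57 log2 CPM in alendronate fish 1, 3.04 in fish 2, 4.88 in fish 3, 3.71 in fish 4 and 3.44 in fish 5. In placebo hearts it was 3.74 in fish 1, 3.39 in fish 2, 3.69 in fish 3 and 5.32 in fish 4. Alendronate fish 1 and placebo fish 4 thus stood at the top of their arms, with alendronate fish 3 next.

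The same fish led in the other tissues. In liver the group stood at 5.90 log2 CPM in alendronate fish 1 and 5.09 in placebo fish 4, and between 3.47 and 4.79 in the other 7 fish. In muscle it stood at 4.92 and 4.41 in these fish and between 2.44 and 3.46 in the others. Spleen was the exception to a clear gap, because alendronate fish 3, at 6.90, came close to alendronate fish 1 at 7.33 and placebo fish 4 at 7.02. The other 5 spleens ranged from 5.18 to 6.01. The spleens of alendronate fish 1 and 3 were also those with 9.77% and 6.37% of counts in genes enriched in liver, while that of placebo fish 4 had 0.906%. The part of this in the spleen levels was not tested. In kidney, where placebo fish 4 has no library, alendronate fish 1 stood at 7.13 and the other 6 fish between 4.48 and 5.81.

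Group 2 had a different order of fish. Median deviations were 0.51 in alendronate fish 4, 0.49 in fish 1 and -0.72 in fish 2, and 0.57 in placebo fish 2 against -0.57 in placebo fish 3. In liver, for example, its mean level was 6.28 log2 CPM in alendronate fish 4 and 6.16 in fish 1, against 4.98 in fish 2, with 5.72 in fish 5 and 5.86 in fish 3 between them. Group 3 ran the other way for the alendronate fish, with median deviations of 0.65 in fish 2, 0.51 in fish 5 and -0.47 in fish 1. Its spleen level was 5.52 log2 CPM in alendronate fish 2 and 5.14 in fish 5, against 3.77 in fish 1. In the placebo arm group 3 was again higher in fish 2, by a median deviation of 0.67, than in fish 3, at -0.67.

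**Figure D2:**
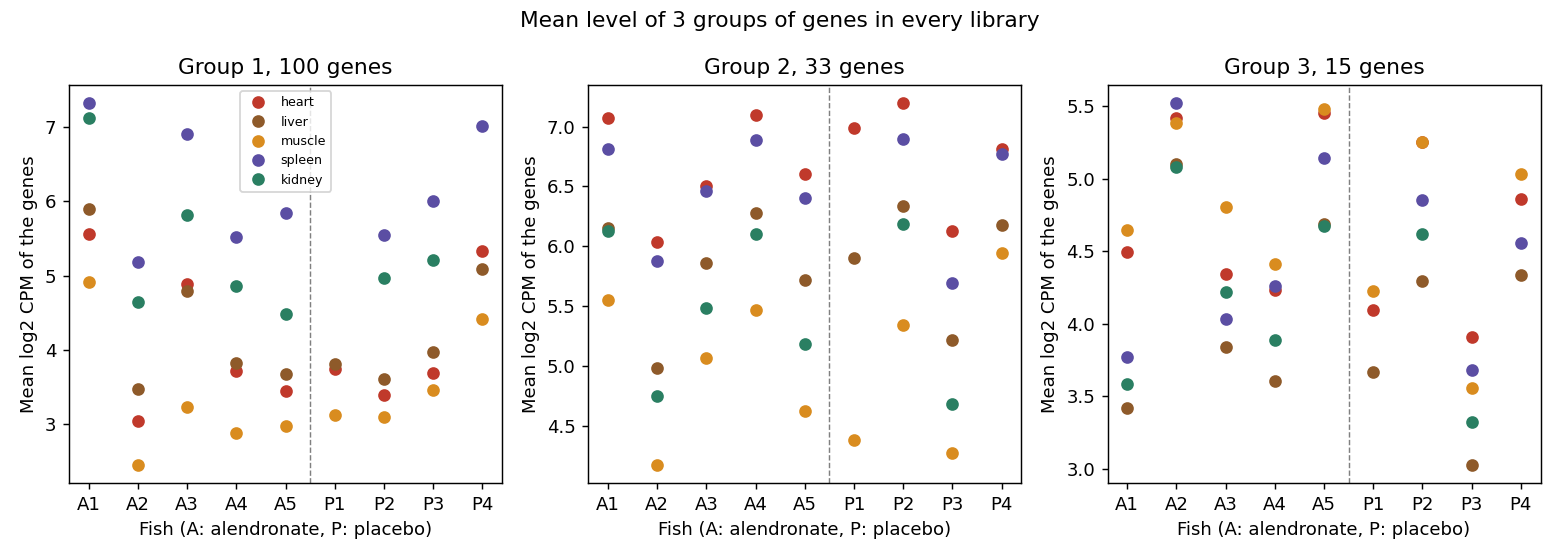
Mean log2 CPM of the genes of each group (y) in every library, by fish (x; A1 to A5 alendronate, P1 to P4 placebo), with 1 point per tissue. In group 1 the points of A1 and P4 lie above those of most other fish in all tissues, for example 5.57 and 5.32 in heart; in group 3 those of A2 and A5 are the highest of the alendronate fish.

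The first-ranked member, with 93.7% of its squared deviations between fish, belongs to group 2. In spleen it stood at 207.5, 44.7, 92.8, 155.7 and 145.4 CPM in alendronate fish 1 to 5, and at 218.3, 49.7 and 193.2 CPM in placebo fish 2 to 4. In kidney it was at 64.6, 18.5, 40.4, 53.7 and 28.6 CPM in alendronate fish 1 to 5 and at 73.6 and 15.2 CPM in placebo fish 2 and 3. Both tissues put alendronate fish 1 and placebo fish 2 at the top of their arms, and alendronate fish 2 and placebo fish 3 at the bottom. Kidney had only these 2 placebo fish. The top fish differed elsewhere. In heart alendronate fish 4, at 236.8 CPM, stood above fish 1, at 213.8. Placebo fish 4 stood above placebo fish 2 in liver, at 43.98 against 27.9 CPM, and in muscle, at 38.8 against 22.6. The bottom fish of each arm were the same in heart, liver and muscle. The members most like this first-ranked gene over the 7 fish means were ranks 72, 83 and 32. Their Pearson r was 0.992, 0.990 and 0.987, from the same libraries that chose them. The second-ranked member, also of group 2, spanned 2.40-fold between fish means, and the third-ranked, of group 1, spanned 7.81-fold.

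The widest member, rank 8 and of group 1, was close to absent in heart and muscle of some fish, but not in their spleens. Its lowest spleen level was 8.46 CPM, a count of 322, in alendronate fish 2. In heart it stood at 127.4, 0.140, 28.1, 0.366 and 3.09 CPM in alendronate fish 1 to 5, where 0.140 CPM is a count of 4. Placebo hearts were at 0.631, 1.29, 1.21 and 59.1 CPM in fish 1 to 4. In muscle it had a count of 0 in alendronate fish 2 and 4, while alendronate fish 1 stood at 54.5 CPM and placebo fish 4 at 14.5 CPM. In heart and muscle alendronate fish 1 and placebo fish 4 were the highest of their arms and of all fish. Without alendronate fish 1 the muscle mean of this gene would lie under the minimum of 5 CPM, so it was eligible only through that fish.

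Levels between tissues were not part of the ranking, beyond the minimum in each tissue. Of the 150 members, 93, or 62%, had their highest mean in spleen, against 19.7% of eligible genes. The median member stood at 78.0 CPM in spleen, 48.1 in kidney, 28.8 in heart, 24.4 in liver and 14.96 in muscle. Eligible genes had medians between 22.9 and 26.1 CPM in the 5 tissues. The preference for spleen was held mainly by group 1, with 81 of 100 genes, and by 10 of 33 in group 2 and 1 of 15 in group 3. Group 2 had its highest median in heart, at 116.0 CPM, followed by spleen at 100.7, and group 3 had its highest, 31.3 CPM, in heart. Members also differed more between tissues, by a median of 5.43-fold between the highest and lowest tissue, against 2.57-fold over eligible genes. Scaling within each tissue put 114 members and 42.7% of eligible genes highest in spleen, so the ratio between these shares was smaller under that scaling. Without alendronate fish 1 and placebo fish 4, and with the scaling over all 42 libraries, the number was 91, against 19.95% of eligible genes.

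Placebo fish 1 and 4 offered a look at the same genes in animals that the ranking did not use, although the minimum level and the scaling factors did. Their heart, liver and muscle were sequenced, and members tended to be higher in fish 4 than in fish 1 in all 3 tissues. The 2 fish differed in the same direction in heart, liver and muscle in 99 of 150 members, or 66.0%, against a background of 38.1% of eligible genes. Fish 4 was the higher one in 93 of these members, where the background is 11.2%, and the lower one in 6, where it is 26.9%. A difference of over 2-fold in the same direction in all 3 tissues was seen in 25 members, against a background of 0.732%, or 59 of the 8055 eligible genes. The 25 include ranks 8, 20 and 87, which met the minimum in muscle only through alendronate fish 1. How many other members did so was not counted, and no alternative choice of members left this fish out of the minimum. The part of such members in these counts was not tested. The median member differed by 0.99 on the log2 scale and the median eligible gene by -0.08 (fish 4 minus fish 1, mean of 3 tissues).

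When the genes were chosen from the 35 libraries of the other 7 fish alone, minimum and scaling included, 147 of the members stayed. Fish 4 was then higher in all 3 tissues in 91 of those 150 genes, against 11.1% of the 8155 genes eligible there. The number fell along the ranking. Fish 4 was the higher one throughout in 37 of the members ranked 1 to 50, in 32 of the next 50 and in 24 of the last 50. Just outside, it was so in 49 of the next 150 genes, or 32.7%, and in 7.85% of the 4027 lowest-ranked eligible genes. Much of the choice of members rests on alendronate fish 1, which is not one of the compared fish. When the 150 genes were ranked without it, 80 of the members stayed, but its libraries still entered the minimum level and the scaling. Fish 4 was then higher in all 3 tissues in 57 of those 150 genes, against 11.2% of eligible genes. The direction was the same in all 3 tissues in 79, against 38.1%. Scaling to plain library totals raised the median difference of eligible genes from -0.08 to 0.23, and fish 4 was then higher in 116 members and in 36.8% of eligible genes.

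The 3 groups differed in these fish. In group 1, fish 4 was higher in all 3 tissues in 73 of 100 genes, with median differences of 1.21 in heart, 1.33 in liver and 0.92 in muscle on the log2 scale. In group 2 this held for 8 of 33, and the difference was largest in muscle, at 1.47, against -0.16 in heart and 0.16 in liver. In group 3 it held for 11 of 15, with 0.56 in heart, 0.53 in liver and 0.94 in muscle. These differences between groups were not tested. The muscle library of placebo fish 4 had the fewest genes with a count of all muscles, 18572 against 19594 to 20695, and 228 of 378 genes enriched in kidney at 0, against 25 to 152. The liver library of placebo fish 1 had the fewest genes with a count of all 42 libraries, 17961. The part of either in these differences was not tested. In heart and liver alone, fish 4 was higher in both in 103 members, or 68.7%, against 18.1% of eligible genes, with 82 in group 1, 8 in group 2 and 12 in group 3.

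**Figure D3:**
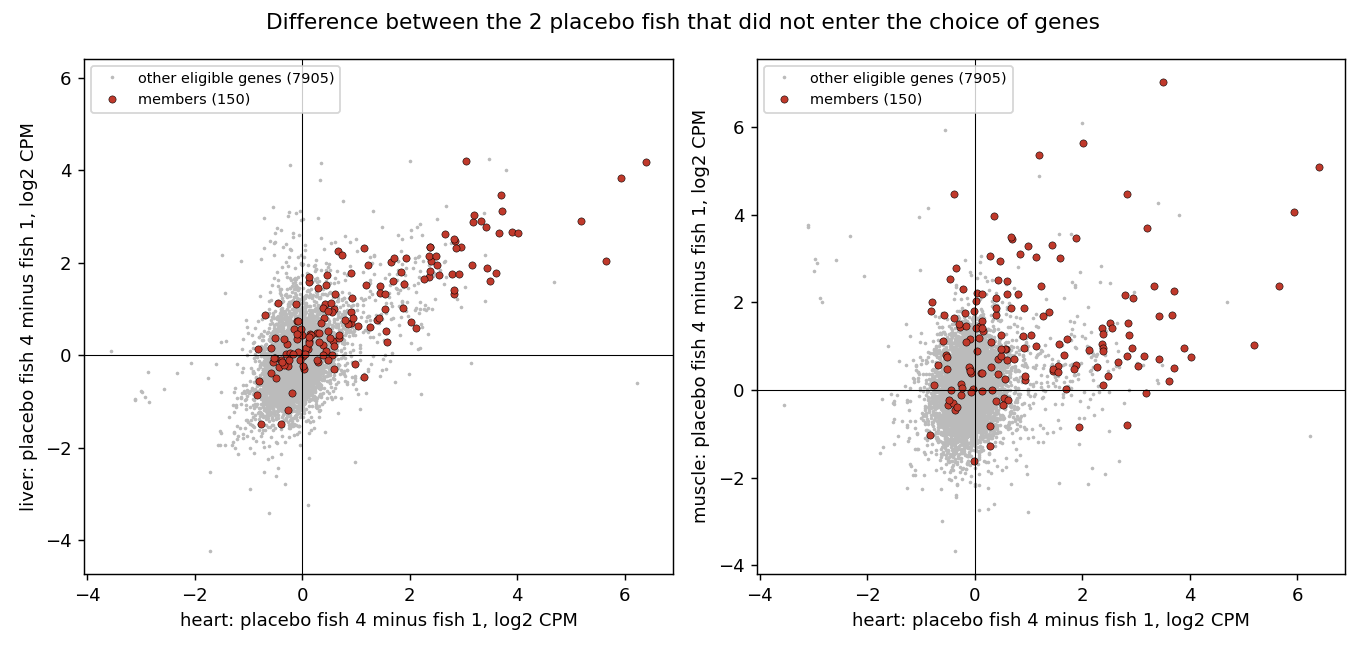
Each point is 1 gene, placed by its difference between placebo fish 4 and placebo fish 1 in heart (x) and in liver or muscle (y), in log2 CPM, with the 150 members in red and the other 7905 eligible genes in grey. Most members lie to the upper right, where fish 4 is higher in both tissues, and the grey points centre near 0.

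A gene-by-gene test of these 2 fish, with tissue as a term, used the quasi-likelihood method of edgeR. It called 0 of the 150 members and 0% of the 17346 genes tested (adjusted p under 0.05). The 6 libraries leave few degrees of freedom, and tissues of a fish are not replicate fish, so the test compares these 2 animals and no condition. At an unadjusted p under 0.05 there were 77 members, or 51.3%, against 7.61% of eligible genes and 7.21% of all genes tested. Fish 4 was the higher one in 76 of the 77, where the background is 3.96% of eligible genes, and the lower one in 1, where it is 3.65%. DESeq2 called 40 members, 39 of them higher in fish 4, and 267 genes in all, or 1.60% of those given an adjusted p. With limma-voom 4 members and 17 genes in all were called, or 0.0980% of the 17346 tested. Without the filter on low counts edgeR called 14 members and 45 genes in all, or 0.193% of 23289.

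ENSNFUG00015009718, rank 87 and of group 1, had the smallest p of the members in this test. In heart it stood at 14.5, 2.84, 5.97 and 133.9 CPM in placebo fish 1 to 4, and at 155.3, 5.07, 41.2, 10.2 and 9.58 CPM in alendronate fish 1 to 5. In liver the placebo fish were at 10.6, 13.0, 15.2 and 88.3 CPM, and the alendronate fish at 196.6, 12.3, 37.4, 9.23 and 24.2 CPM. Alendronate fish 1 and placebo fish 4 were the highest fish of all in both organs.

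In muscle the placebo fish stood at 1.85, 2.66, 2.48 and 24.8 CPM, and the alendronate fish at 65.0, 0.0574, 1.42, 1.91 and 3.20 CPM, where 0.0574 CPM is a single read. Without alendronate fish 1 the muscle mean of this gene would lie just under the minimum of 5 CPM, so it was eligible only through that fish. Spleen levels were higher, at 950.1, 56.6, 756.2, 63.8 and 168.2 CPM with alendronate and at 55.1, 97.95 and 858.8 CPM in placebo fish 2 to 4. In kidney alendronate fish 1 reached 1035 CPM, while alendronate fish 2 to 5 stood at 6.01, 84.0, 6.97 and 17.7 CPM and placebo fish 2 and 3 at 11.9 and 17.3 CPM. Alendronate fish 3 was high in spleen, intermediate in heart and kidney, and low in muscle. The fitted difference between placebo fish 4 and 1 was 3.33 on the log2 scale with a standard error of 0.24, and the adjusted p was 0.0562 by edgeR. It was 4.41e-24 by DESeq2, 0.0209 by limma-voom and 0.00158 by edgeR without the filter on low counts. These fits treat tissues of a fish as replicates, and the gene was picked by its p in the same libraries.

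**Figure D4:**
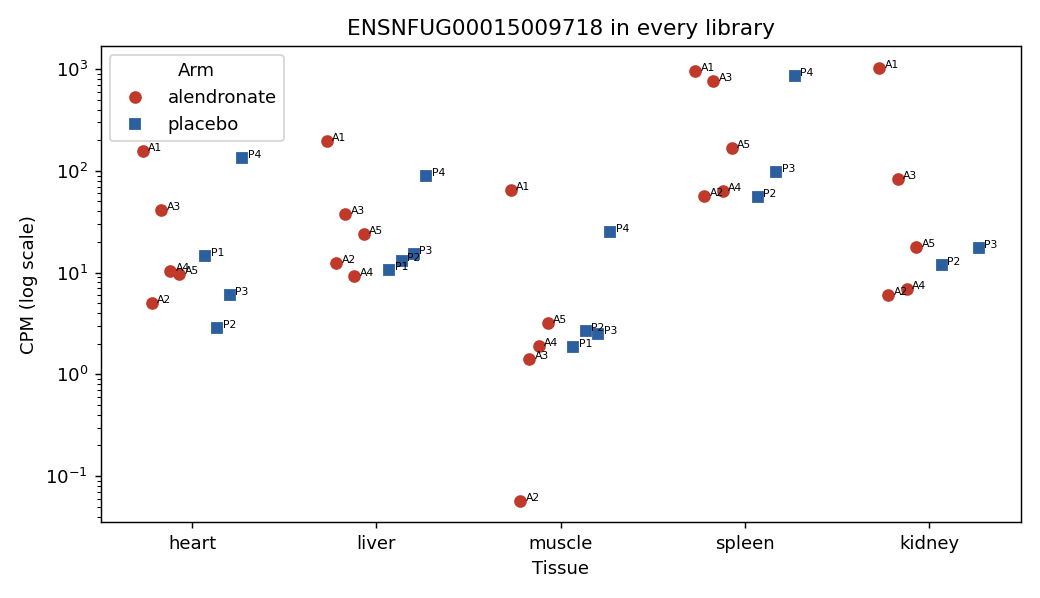
CPM of ENSNFUG00015009718 on a log axis (y) in every library, by tissue (x), with alendronate fish as red circles and placebo fish as blue squares. A1 and P4 are the highest fish of their arms in each tissue in which they were sequenced, for example 155.3 and 133.9 CPM in heart.

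ENSNFUG00015000960, rank 47 and also of group 1, came next. Its placebo hearts were at 5.55, 4.57, 8.94 and 56.5 CPM in fish 1 to 4, and its alendronate hearts at 115.4, 2.87, 53.2, 5.19 and 9.05 CPM in fish 1 to 5. In muscle the placebo fish were at 6.77, 8.28, 11.3 and 35.3 CPM and the alendronate fish at 47.8, 8.49, 10.97, 8.14 and 8.22 CPM. Alendronate fish 3 came second in its arm in heart and was close to the others in muscle. In spleen the alendronate fish stood at 486.3, 74.3, 538.9, 62.3 and 162.4 CPM and placebo fish 2 to 4 at 73.6, 124.6 and 189.5 CPM, so alendronate fish 3 was the highest there. The fitted difference between placebo fish 4 and 1 was 2.91 with a standard error of 0.29, and the adjusted p was 0.145 by edgeR. It was 1.24e-11 by DESeq2, 0.0446 by limma-voom and 0.00762 by edgeR without the filter. This gene too was picked by its p in the same libraries.

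Of the members lower in placebo fish 4 than in fish 1, those with the smallest p were ENSNFUG00015015748, rank 128, and ENSNFUG00015015487, rank 62, both of group 3. ENSNFUG00015015748 stood in muscle at 80.1, 100.6, 53.2 and 39.5 CPM in placebo fish 1 to 4, and at 58.4, 80.9, 39.9, 68.9 and 63.5 CPM in alendronate fish 1 to 5. Its range between fish was narrow, at 1.69-fold over the 7 fish means, and its fitted difference was -0.89 (SE 0.19), with edgeR giving an adjusted p of 0.394. ENSNFUG00015015487 stood in liver at 54.4, 42.7, 19.9 and 19.3 CPM in placebo fish 1 to 4, and at 23.8, 52.8, 26.0, 26.2 and 41.99 CPM in alendronate fish 1 to 5. Its fitted difference was -0.70 (SE 0.30), with edgeR giving an adjusted p of 0.711. In the tissues given for both genes the placebo fish overlapped the alendronate fish.

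Some shares of counts were also high in alendronate fish 1 and placebo fish 4. The 44 genes with at least 5 CPM in spleen and at least 10 times less in every other tissue, of which 0 are members, took 0.0312% of heart counts in alendronate fish 1 and 0.0349% in placebo fish 4. The other 7 hearts had 0.0123% to 0.0168%. In liver they took 0.0134% and 0.00866% against 0.00290% to 0.00609%, and in muscle 0.0126% and 0.0130% against 0.00820% to 0.0110%. Of the 44, between 8 and 15 had no count in a given heart library, with 10 in alendronate fish 1 and 8 in placebo fish 4. In kidney alendronate fish 1 was at 0.111% and the other 6 fish between 0.0379% and 0.0638%. Spleen itself went the other way for alendronate fish 1, which had the lowest share, 0.620%. There placebo fish 4 had 0.929%, within the 0.844% to 1.27% of the other 6 fish. The mean log2 CPM of the same 44 genes, which weights them equally, did not follow the share throughout. In muscle it was lowest in placebo fish 4, at -0.89 against -0.72 to -0.25 in the other 8 fish. In heart it was highest in placebo fish 4, at -0.78, while alendronate fish 1, at -1.09, lay among the other 7, at -1.32 to -1.01. In liver alendronate fish 1 and placebo fish 4 were highest, at -0.14 and -0.19, with alendronate fish 2 next at -0.26. Without gene names these 44 stand for spleen tissue only, not for a cell type. Their part in the levels of the members was not tested. In liver, genes enriched in liver took 57.2% of counts in alendronate fish 1, the lowest share, and 65.1% in placebo fish 4. The other 7 livers ranged from 62.7% to 71.5%. The members themselves took 2.30% and 2.04% of heart counts in these fish, and 0.797% to 1.49% in the other 7. For alendronate fish 1 this restates the choice, since the members were ranked on its values, while placebo fish 4 was not ranked on. Total counts of these fish lay within the range of the other libraries. Their TMM factors were the highest in heart, at 1.42 and 1.51 against 1.08 to 1.36, and in muscle, at 0.785 and 0.791 against 0.622 to 0.688. In liver only alendronate fish 1 stood above the others, at 0.687, and in spleen its factor was the lowest, at 1.44.

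With alendronate, edgeR called 0 of the 150 members in any tissue (adjusted p under 0.05). The comparison set treated against placebo fish within each tissue. The background was 0% of genes in heart, liver, spleen and kidney and 0.00641% in muscle, where 1 gene, not a member, was called. At an unadjusted p under 0.05 there was 1 member in liver, 1 in muscle and 0 in each of heart, spleen and kidney, against 4.33%, 7.24%, 2.47%, 0.745% and 0.956% of eligible genes. DESeq2 and limma-voom called 0 members in each tissue. The 2 members at an unadjusted p under 0.05 were rank 124, lower in liver by a log2 change of -0.47 with a standard error of 0.20, and rank 150, higher in muscle by 0.40 with a standard error of 0.18. Their adjusted p by edgeR was 0.914 and 0.664.

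The members had larger errors than eligible genes. The rule favoured differences between fish of an arm over all other spread, in most of the same libraries. It ranked a ratio and not a size, and its part in these errors was not tested. A low share of members at a small p may also come from the choice, and is no result about the drug. The median standard error of a member's log2 change was 0.41 in heart, 0.45 in liver, 0.48 in muscle, 0.43 in spleen and 0.62 in kidney, against 0.17 to 0.25 over eligible genes. Over the members, the fitted change had a median of 0.04 in heart, 0.24 in liver, -0.10 in muscle, 0.06 in spleen and 0.36 in kidney, and the median over eligible genes lay between -0.005 and 0.03. Which of these medians was above 0 depended on single fish. Without alendronate fish 1 they were -0.17, -0.15, -0.51, -0.15 and -0.06 in the same order. Without placebo fish 4 they were 0.38 in heart, 0.57 in liver, 0.29 in muscle and 0.33 in spleen. The count at an unadjusted p under 0.05 rose to 41 members in muscle without alendronate fish 1, where 9.14% of eligible genes passed, and to 18 in liver without placebo fish 4, where 9.36% did, with 0 members at an adjusted p of 0.05 in either fit. Leaving out the spleens of alendronate fish 1 and 3 put the members' median in spleen at -0.44, with 30 members at an unadjusted p under 0.05, against 5.47% of eligible genes, and 0 called. Without both alendronate fish 1 and placebo fish 4 the medians were 0.16 in heart, 0.25 in liver, -0.08 in muscle, 0.14 in spleen and -0.06 in kidney, again with 0 called.

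Group 1, for instance, had a mean level in placebo hearts of 4.04 ± 0.87 log2 CPM (SD, n = 4), and of 4.13 ± 1.06 (SD, n = 5) in alendronate hearts. Placebo spleens were at 6.19 ± 0.75 (SD, n = 3) and alendronate spleens at 6.15 ± 0.92 (SD, n = 5). Placebo livers were at 4.12 ± 0.67 (SD, n = 4) and alendronate livers at 4.33 ± 1.01 (SD, n = 5). The ranges of the arms overlapped in each of these tissues. Averaging heart, liver and muscle for each of the 9 fish and testing with limma also called 0 members and 0% of the 8055 eligible genes. Of the members 75 lay above 0 and 75 below, with a median change of -0.0002 and a median standard error of 0.42. No member, or 0 of 150, had an unadjusted p under 0.05, where the background of 1.99% of eligible genes is no fair measure for genes chosen for their differences within an arm.

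**Figure D5:**
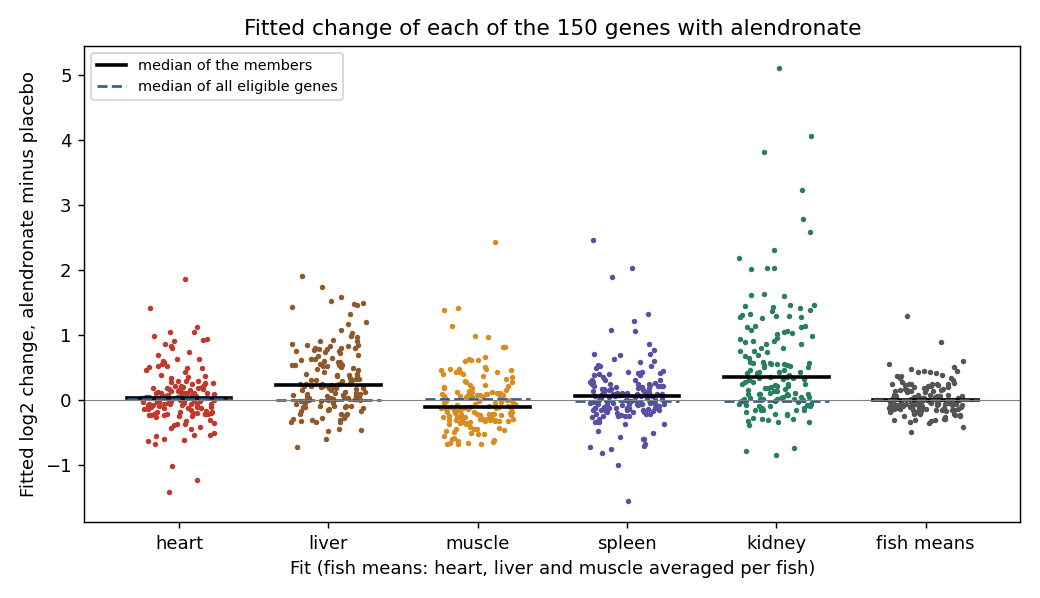
Fitted log2 change with alendronate (y) of each of the 150 genes in the fits of the 5 tissues and of the fish means (x), with the median of the members as a solid line and that of all eligible genes as a dashed line. Points spread to both sides of 0, with medians from -0.10 in muscle to 0.36 in kidney, and none passed an adjusted p of 0.05.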

How the data were processed

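The authors deposited 1 table of read counts per Ensembl gene ID, whole numbers with 1 column per library and no normalization. Per the submitters' processing notes, STAR 2.7.10b, SAMtools 1.13, Trim Galore 0.6.10, MultiQC 1.28, FastQC 0.12.1, bcl2fastq and CASAVA were used, in roles not stated. The sources used here do not give the counting program, strand setting, build or annotation, so overlapping genes and near-identical copies are uncertain. There were 0 rows without a gene, 0 columns of no sample and 0 identical libraries.

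The members, groups and tests were chosen with earlier results of these data known. Levels are TMM-scaled CPM (prior count 2 on the log2 scale). Tests used R 4.3.3 with edgeR 4.0.16 (filterByExpr, TMM, quasi-likelihood, robust), limma 3.58.1 for fish means, and DESeq2 1.42.0 as an alternative. P-values were two-sided, with Benjamini-Hochberg adjustment over all genes of a fit, and measure only the spread between these libraries. The tests were checked on simulated data in which, apart from the planted changes, libraries of a fish varied independently, unlike those of the members.

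The IDs printed are, of the members higher and of those lower in placebo fish 1 than in fish 4, the 2 with the smallest p; other members are given by rank (1 to 3, those at the limit, and the widest). Naming by symbol and gene lists by symbol were planned but no ID matched. Rank 20, rank 124, and rank 150 in its muscle test, were singled out after their values were seen.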

Additional observations from a re-analysis of the deposited data

Results flagged for a closer look

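In 56 checks of groups of 4 or 5 libraries, covering the mean level of the 3 gene groups and the CPM of the 4 genes given by ID, 11 had 1 library set apart by Dixon's test of the gap to its neighbour. Chance flags about 1 in 20 groups, but that rate does not hold here, because the genes were chosen for their differences between fish, and 2 of the 4 for being high in placebo fish 4. Also, libraries of 1 fish and genes of 1 group are not separate events. All 11 were the highest library of their group. All came from ENSNFUG00015009718 or ENSNFUG00015000960, those 2 genes, in alendronate fish 1 or placebo fish 4. Those in placebo fish 4 restate that choice. Those in alendronate fish 1 restate the choice of the members, which were ranked on its values. ENSNFUG00015009718 reached 155.3 CPM in heart, 196.6 in liver, 65.0 in muscle and 1035 in kidney of alendronate fish 1, where the next fish stood at 41.2, 37.4, 3.20 and 84.0 CPM. It reached 133.9 CPM in heart, 88.3 in liver and 24.8 in muscle of placebo fish 4, with 14.5, 15.2 and 2.66 CPM in the next fish. ENSNFUG00015000960 reached 47.8 CPM in muscle of alendronate fish 1, next to 10.97 CPM. In placebo fish 4 it reached 56.5 CPM in heart, 26.0 in liver and 35.3 in muscle, next to 8.94, 5.48 and 11.3 CPM.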

How the results depend on the processing

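Of the 150 members, 93 stayed with a minimum of 1 CPM and 95 with 10 CPM. From 80 (without alendronate fish 1) to 131 stayed when a fish or tissue was left out of the ranking. In the test of placebo fish 4 against fish 1, edgeR called 0 members, DESeq2 40, limma-voom 4 and edgeR without a filter 14. The shares called over all genes with an adjusted p were 0%, 1.60%, 0.0980% and 0.193%. Leaving out a tissue gave 0 to 1 member, against 0% to 0.0181% of all genes. The members at an unadjusted p under 0.05 ran from 59 without heart to 72 without liver and 81 without muscle, against 4.58%, 5.02% and 8.71% of all genes tested. Among the 150 genes ranked without alendronate fish 1, placebo fish 4 was higher in all 3 tissues in 57 in place of 93. This alternative was added after seeing the data, and alendronate fish 1 still entered its minimum level and scaling. The share of eligible genes was 11.2% in both cases. The cause of these shifts was not tested. The count of members called with alendronate was 0 under every alternative run, in each tissue and for fish means, from 0 to 0 when leaving out single libraries. That includes the replicate block, where it was also 0; equal numbers mark different fish in the arms, and the deviations of the 17 same-numbered pairs correlated between -0.39 and 0.49, with 7 above 0.1. The 4 genes given by ID kept the direction of their difference between placebo fish 4 and 1 in each alternative run. They were chosen by that difference, and these runs reused the same libraries or some of them, so a kept direction is no support. The number of fish per arm, 4 or 5 and in placebo spleen and kidney 3 and 2, limits the precision, and so does counting error where a value rests on a few reads.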
